A study of Mus musculus with 12 samples.

Results

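Acini, the clusters of cells that make and secrete the digestive enzymes of the pancreas, were compared with organoids grown from the ducts that carry those enzymes away, in mouse. The comparison took 8 of the 12 microarrays of the series, 4 of Acini and 4 of Ducts, labelled as biological replicas A to D in each group. Acini were pancreatic exocrine acini collected fresh, with no culture. Ducts were ductal organoids of the pancreas grown in Matrigel, in Advanced DMEM/F12 with R-Spondin1, EGF, FGF10, gastrin, Noggin, B27, N-acetylcysteine, nicotinamide and antibiotics, so that cell type and culture cannot be told apart in any difference below. The study also turned acini that carry R26-rtTA and tetO-YAP S127A, a doxycycline-inducible and constitutively active form of YAP, into organoids called yDucts. Those 4 arrays entered here only for the shared estimate of spread and for the difference between yDucts and Ducts. Young adult mice were the source of acini in the study's methods, while the genotype and strain behind the Acini and Ducts arrays, and the age behind Ducts, could not be taken from the sources used here. The arrays are described as separate biological samples, with no word on whether each came from an animal or a culture of its own, and the p-values measure the spread between them.

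Of 45101 probe sets on the array, 34958 were paired with exactly 1 gene symbol, and these stood for 18194 genes, each read from the probe set with the highest mean. A total of 14991 genes lay above the 30th percentile of an array on at least 4 arrays and were tested. All levels are log2 values after robust multi-array averaging (RMA), and a difference is the mean of Ducts minus the mean of Acini on that scale, with its standard error (SE) from the model. Levels of different genes were not set against each other, because probe sets differ in how brightly they read. Where the mean of one group lay below its mean 30th percentile, the fold is given as a lower bound, with the percentile in place of the level on each array that lay below it. Wherever a bound is given below, all 4 arrays of the lower group were below their percentile, except that 2 arrays were above it for Gp2, Ptf1a and Tspan8, and 1 for Egf, Fosb, Aldh1l1 and Cox7c.

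An acinar cell is a factory for zymogens. It translates a few secretory messages in great amounts, folds them in an extensive rough endoplasmic reticulum, packs them into granules, and releases them at its apical face when cholecystokinin or acetylcholine raises cytosolic calcium. This state is held by transcription factors such as PTF1A with RBPJL, NR5A2 and MIST1 (Bhlha15). A duct cell forms a tight tube, adds bicarbonate and water to the secretion, is marked by keratins 7 and 19, and in culture with EGF and R-Spondin1 can proliferate as a hollow cyst.

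The labels were checked against defining markers first. The summed level of 7 acinar markers lay at 16.18 to 16.21 on the Acini arrays and at 6.11 to 6.4 on the Ducts arrays, and the sum of 8 duct markers lay at 11.65 to 12.05 against 13.99 to 14.97. Each sum was taken before the log, so that the brightest markers weigh most. All 7 acinar markers were called lower in Ducts, beside 33.1% of all genes tested. Of the 8 duct markers, 4 were called higher and none lower, beside 42.7% of all genes tested called higher. Sox9 and Cftr were among the duct markers not called. Markers of cells other than epithelium also moved with the groups, as all 11 tested endocrine markers, 13 of 13 endothelial and 17 of 18 stromal markers were lower in Ducts. Of 16 tested immune markers, 13 were lower and 2 higher. Their summed level overlapped between the groups at 9.97 to 10.66 in Acini and 9.14 to 12.6 in Ducts. One bright marker weighs heavily in it, as Cd14 read 11.91, 12.5, 8.68 and 8.07 in Ducts A to D against 6.47 to 7.45 in Acini. Ins2 read 11.81, 11.69, 12.04 and 11.39 in Acini A to D and 4.94, 4.67, 4.27 and 4.11 in Ducts A to D, and the fibroblast collagen gene Col3a1 read 8.9 to 9.8 against 2.33 to 2.48. In bulk RNA, fewer cells of a type and less RNA per cell cannot be told apart, and the part of these other cells in the results below was not tested.

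The arrays also differed in ways other than the labels. The 30th percentile of the levels lay at 3.64 to 3.79 in Acini and at 3.19 to 3.23 in Ducts, the interquartile range at 2.51 to 2.81 against 3.85 to 3.92, and the Gapdh control read 1.29 to 1.91 higher at its 3′ than at its 5′ end in Acini against -0.07 to 0.02 in Ducts. Ducts A and B stood apart from Ducts C and D. The Euclidean distance over the tested genes was 32.8 between C and D, 70.6 between A and B, and 83.9 to 109 across the pairs, against 66.5 to 85.3 among Acini and 199 to 225 between Acini and Ducts. Values that rest on one of these pairs are given for every array, and the difference without each pair is given where it ended a call.

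Of the 14991 genes tested, 6395 (42.7%) were higher and 4960 (33.1%) lower in Ducts at an adjusted p under 0.05 (limma, Benjamini-Hochberg), which is 75.7% in either direction. The difference reached 2-fold for 4758 genes (31.7%) that were higher and 2689 (17.9%) that were lower, which is 49.7% in either direction. The 4 Ducts arrays did not overlap the 4 Acini arrays for 9666 genes (64.5%). The median difference of all genes tested was 0.21, and it became -0.15 when the arrays were quantile normalised and -0.17 after cyclic loess. The split of calls changed with it, as 56.3% of the called genes were higher in Ducts in the deposited scaling, 44.4% after quantile normalisation and 41.4% after cyclic loess. Groups of genes are therefore described below by the number or share called each way, to be read beside 42.7% higher and 33.1% lower. The median relative to that of all genes is given where the scaling turned its sign. At the other end, 3654 genes (24.4%) had a 95% interval of the difference inside -1 to 1. Of the 8 brightest of these, 7 encoded ribosomal proteins, and all 8 were called higher, with differences from 0.34 to 0.66.

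**Figure D1:**
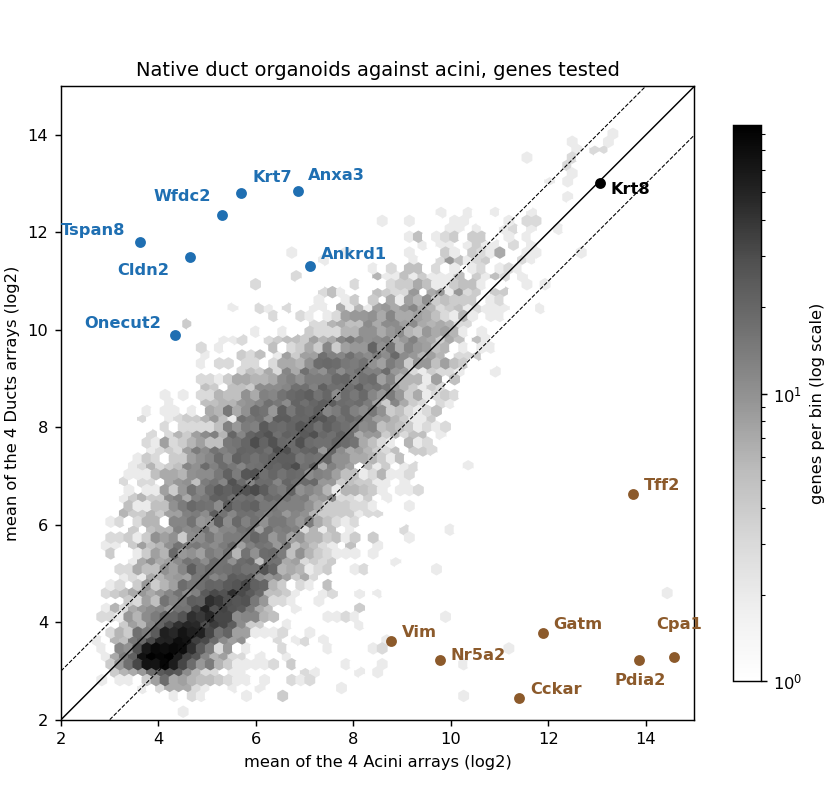
Mean log2 level of each of the 14991 tested genes in Acini (horizontal axis, 4 arrays) and in Ducts (vertical axis, 4 arrays), with hexagons shaded by the number of genes and dashed lines at 2-fold. Digestive enzymes and granule proteins lie at the lower right, far from the diagonal, and Krt7 with other epithelial genes at the upper left.

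The digestive enzymes were lower in Ducts throughout. All 18 tested members of the list of enzymes and zymogens were called lower, none was higher, and their median difference was -10.48. Pnliprp1, a lipase-related protein of pancreatic juice, read 14.21, 14.32, 14.38 and 14.28 in Acini A to D and 2.64, 2.6, 2.93 and 3.1 in Ducts A to D, at least 2176-fold lower (adjusted p = 3.15e-15). Cel, the bile salt-activated lipase, read 14.39, 14.4, 14.5 and 14.4 against 3.54, 3.6, 3.68 and 3.42, and the ribonuclease Rnase1 read 14.41, 14.53, 14.55 and 14.43 against 3.13, 3.11, 3.33 and 3.13. The 4 Acini arrays lay close together in these genes, near the highest level on those arrays, which was 14.73 to 14.79. Amylase 1 (Amy1) lay lower on the scale at 10.2 to 10.24 in Acini, and was at 2.23 to 2.69 in Ducts, at least 129-fold lower. Klk1, a kallikrein, depended on the probe set, at 7.22 to 7.83 in Acini and 6.38 to 6.89 in Ducts on the one used (difference -0.95 ± 0.17, adjusted p = 0.000196) and with differences from -11.84 to -3.85 on its 3 others.

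The stretches just before the start of 4 of these genes are shown because they carry the letters read by the acinar factors whose levels follow. They come from RefSeq on the build GRCm38.p6, run 5′ to 3′ on the strand of the gene, and end at the base before the annotated start. Capitals mark CANNTG, the E-box read by PTF1A with its partner, and TGGGAA, the RBPJ site.
Cpa1, chr6:30639118-30639217, plus strand: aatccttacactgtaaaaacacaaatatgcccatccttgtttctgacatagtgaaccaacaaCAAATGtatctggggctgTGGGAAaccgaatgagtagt
Pnliprp1, chr19:58728767-58728886, plus strand: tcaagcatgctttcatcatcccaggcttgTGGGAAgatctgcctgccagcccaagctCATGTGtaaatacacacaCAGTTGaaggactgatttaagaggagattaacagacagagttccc
Cel, chr2:28563404-28563583, minus strand: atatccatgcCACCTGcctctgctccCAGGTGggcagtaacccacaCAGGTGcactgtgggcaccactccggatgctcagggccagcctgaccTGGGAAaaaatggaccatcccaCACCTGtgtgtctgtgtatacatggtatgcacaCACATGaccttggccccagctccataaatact
Cela2a, chr4:141826006-141826135, minus strand: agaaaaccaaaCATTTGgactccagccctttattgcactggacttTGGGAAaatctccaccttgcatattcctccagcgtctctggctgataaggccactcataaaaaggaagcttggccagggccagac
In Cpa1 the E-box lay 38 to 33 and the TGGGAA 20 to 15 bases before the start. Both strands were searched over the 250 bases before the start of each gene, and no E-box overlapped a TGGGAA in the windows shown. A window was found for 16 of the 18 enzymes, and 13 of them (81.2%) held CANNTG, 10 (62.5%) held TGGGAA and 8 (50%) held both. Over all 27025 genes with a window the shares were 69.3%, 24.1% and 16.7%. The letters TCAAGGTCA, read by NR5A2, stood in none of the 16 windows and in 0.422% of all. These matches describe the letters only.

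The machinery that moves the enzymes was lower in part. Of 23 tested genes for zymogen granules and regulated exocytosis, 13 were lower and 4 higher in Ducts, with a median of -0.80. The granule membrane protein Gp2 read 13.24, 13.31, 13.37 and 13.5 in Acini A to D and 2.84, 3.36, 3.34 and 3.09 in Ducts A to D, at least 1082-fold lower. Zg16, Sycn and Cuzd1, all proteins of the granule content or membrane, were at 14.17 to 14.3, 13.94 to 14.01 and 13.23 to 13.69 in Acini and at 3.98 to 4.65, 3.51 to 4.29 and 2.9 to 3.06 in Ducts. Tmed6, a cargo receptor of the early secretory pathway, was at 12.09 to 12.96 against 2.57 to 4.39. The small GTPases Rab3d and Rab26 act in granule traffic. Rab3d read 6.78, 8, 7.04 and 6.67 in Ducts A to D against 10.18 to 10.64 in Acini (9.46-fold lower), and Rab26 read 4 to 4.55 against 8.1 to 8.42. The 4 higher genes included the membrane fusion proteins Snap23 and Stx3. Snap23 was 4.97-fold higher (adjusted p = 3.79e-05), while Stx3 differed by 1.64 ± 0.29 (adjusted p = 0.000249) and by 0.51 after cyclic loess, where it was not called (adjusted p = 0.125). Dmbt1, a scavenger protein secreted with the enzymes, was uneven among the Ducts arrays at 8.91, 12.71, 6.57 and 5.36, against 13.96 to 14.23 in Acini.

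Members of the path from hormone to calcium went both ways. Of 20 tested secretagogue receptor and calcium genes, 10 (50%) were lower and 7 (35%) higher, with a median of -0.37. Cckar, the receptor through which cholecystokinin drives secretion, read 11.13, 11.48, 11.65 and 11.35 in Acini A to D and 2.56, 2.32, 2.49 and 2.42 in Ducts A to D. All 4 Ducts arrays lay below the 30th percentile, so that the level was at least 293-fold lower (adjusted p = 1.31e-14). Cckbr, the receptor for the gastrin in the organoid medium, was at 5.67 to 6.19 in Acini and 4.44 to 4.71 in Ducts, 2.45-fold lower. Gna14, a G protein subunit of the Gq class, and the calcium-binding protein Cabp2 were 15.5-fold and 101-fold lower. Other members were higher. The inositol trisphosphate receptor Itpr3 read 5.71, 6.2, 6.59 and 6.2 in Acini and 9.18, 9.12, 8.94 and 8.68 in Ducts (6.99-fold higher), the plasma membrane calcium pump Atp2b1 was 7.93-fold higher, and the calcium-activated chloride channel Ano1 was 6.89-fold higher.

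The acinar transcription factors were mostly lower, with 8 of 11 called lower, 1 higher, and a median of -2.83. Ptf1a, which commits cells to the acinar fate, read 10.15, 10.25, 10.44 and 10.08 in Acini A to D and 3.3, 2.88, 3.26 and 3.12 in Ducts A to D, at least 127-fold lower (adjusted p = 5.86e-13). Its partner Rbpjl, which forms the mature complex, was at 9.71 to 10.1 against 3.96 to 4.13, and Bhlha15 (MIST1), which scales up the secretory apparatus, at 10.52 to 10.98 against 3.99 to 5.12. None of the 3 overlapped between the groups. Nr5a2, a nuclear receptor that acts with PTF1A on enzyme genes, read 9.74, 9.79, 9.92 and 9.66 in Acini and 2.99, 3.06, 3.34 and 3.53 in Ducts. Spdef, an ETS factor of secretory cells, was 11.8-fold lower. Mecom was not called (1.01 ± 0.56, adjusted p = 0.113), with 6.47, 9.82, 9.2 and 9.17 in Ducts A to D.

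The endoplasmic reticulum did not move as one. Of 40 tested genes of the translocon, glycosylation and the unfolded protein response, 11 were higher and 11 lower, both under the shares over all genes, with a median of -0.08. Pdia2, the disulfide isomerase particular to the pancreas, read 13.87, 13.84, 13.84 and 13.93 in Acini A to D and 2.98, 3.1, 3.25 and 3.58 in Ducts A to D. Its widely expressed relatives Pdia3 and Pdia4 went the other way, at 11.37, 11.74, 12.8 and 12.79 and 9.7, 9.37, 11.15 and 11.08 in Ducts A to D against 8.4 to 9.62 and 7.14 to 8.15 in Acini, although a second probe set of Pdia4 was lower by 1.44 on the log2 scale. Derl3 and Edem1, which clear misfolded proteins, were lower at 5.98, 5.96, 8.36 and 7.6 and 7.72, 7.9, 8.49 and 8.41 in Ducts against 10.29 to 10.73 and 11.22 to 11.89 in Acini. The count of this list rested on the choice of Ducts arrays and on the scaling. It was 18 higher and 10 lower without Ducts A and B, 8 and 19 without C and D, 5 and 24 after quantile normalisation, and 5 and 28 after cyclic loess. The chaperone Hspa5 (BiP) read 12.05, 12, 13.3 and 13.24 in Ducts A to D around 12.26 to 12.75 in Acini. It was not called (0.23 ± 0.29, adjusted p = 0.473) and turned to -0.17 after quantile normalisation, again with no call. After cyclic loess it was -0.72 and called lower (adjusted p = 0.0352). One of its other probe sets gave -1.38, called lower (adjusted p = 7.25e-07), and another 0.49.

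**Figure D2:**
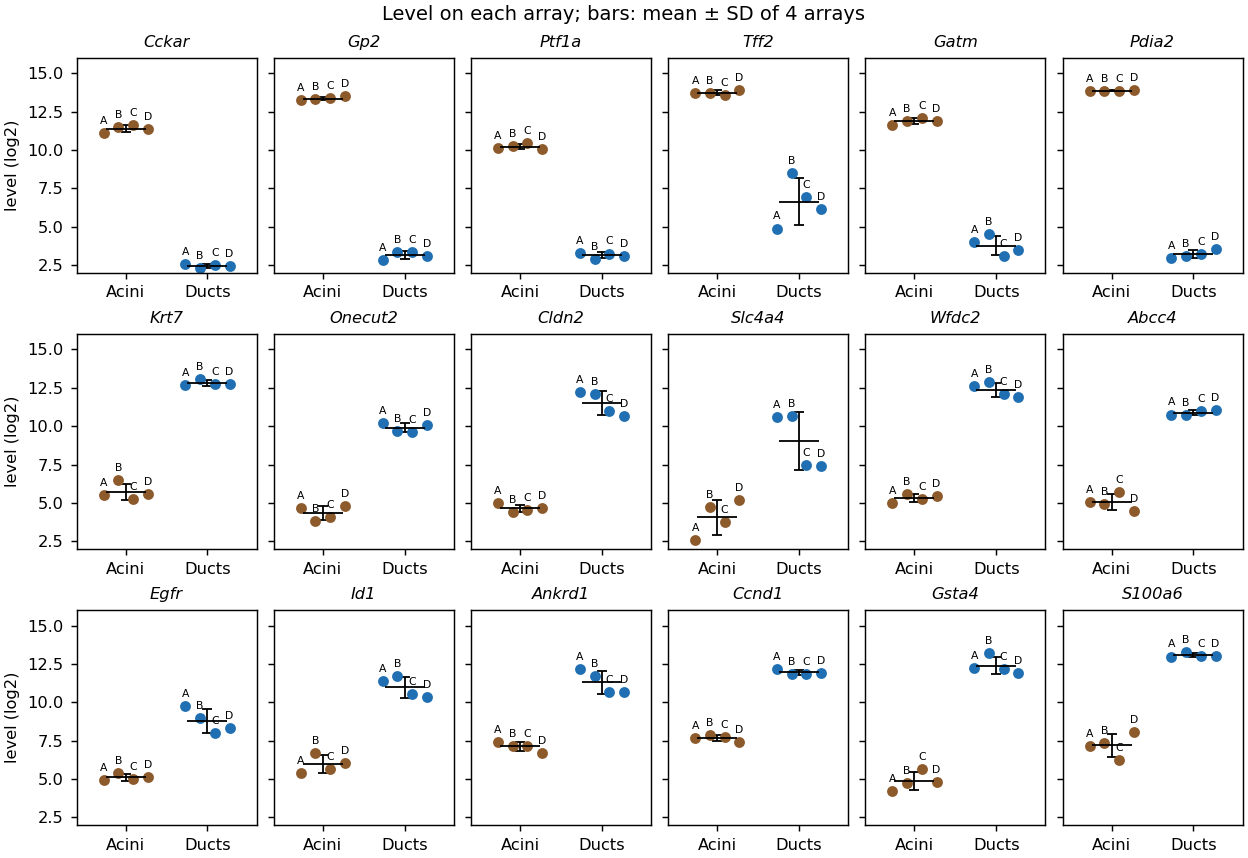
Log2 levels of 18 genes on each of the 4 Acini and 4 Ducts arrays, with lines at the mean and error bars of 1 SD over 4 arrays. The groups do not overlap in any panel, and Ducts A and B sit above C and D in Slc4a4 and Cldn2.

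Of 13 keratins tested, 5 (38.5%) were higher and 3 (23.1%) lower in Ducts. Their median of -0.05 became 0.07 after quantile normalisation and 0.14 after cyclic loess, which is -0.26, 0.22 and 0.31 relative to all genes. Krt7 read 5.53, 6.48, 5.22 and 5.57 in Acini A to D and 12.69, 13.07, 12.72 and 12.76 in Ducts A to D, even over the 4 arrays of each group but for Acini B, whereas Krt23 was at 8.27, 9.68, 7.88 and 7.79 in Ducts against 5.44 to 6.63 in Acini. The general pair of simple epithelium differed by less. Krt8 lay at 12.96 to 13.23 in Acini and at 12.25 to 13.7 in Ducts and was not called (-0.05 ± 0.27, adjusted p = 0.867). The Krt8 difference was -0.95 after cyclic loess, -0.6 without Ducts A and B and 0.49 without C and D, and 3 alternatives called it. Krt18 was 2.54-fold higher (adjusted p = 1.4e-05), but by 0.44 after cyclic loess, where it was not called (adjusted p = 0.0559).

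Among 27 tested transcription factors of ducts and progenitors, 19 (70.4%) were higher and 4 (14.8%) lower, with a median of 1.41. Onecut2, a factor of the developing pancreatic epithelium, read 4.66, 3.84, 4.07 and 4.79 in Acini A to D and 10.2, 9.66, 9.63 and 10.09 in Ducts A to D (47-fold higher, adjusted p = 4.32e-10). Hhex, needed in duct cells, was at 10.55, 10.42, 9.98 and 9.45 in Ducts against 3.36 to 6.28 in Acini, and Sox4 at 12.45, 12.52, 12.17 and 12.32 against 7.19 to 8.55. Klf5 and the ETS factor Ehf, both of epithelial growth and barrier, were 10.5-fold and 11.8-fold higher, although a second probe set of Ehf was lower by 1.63 on the log2 scale. Sox9, the duct and progenitor factor, was not called, with 7.54, 8.3, 6.7 and 6.41 in Ducts A to D and 6.11 to 7.12 in Acini (0.56 ± 0.36, adjusted p = 0.167), and it turned to -0.25 after quantile normalisation and -0.12 without Ducts A and B. It was 1.24 without Ducts C and D, and 1.99 on its other probe set, where it was called (adjusted p = 0.00106). The liver and pancreas factor Foxa3 was 3.15-fold lower. Prox1, a factor of pancreatic development, was 2.06-fold lower and near the lower end of the scale in both groups at 3.85 to 5.77 and 3.6 to 3.8; after cyclic loess it was not called (adjusted p = 0.118).

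Transporters for bicarbonate, chloride and water split evenly, with 10 of 30 tested genes (33.3%) higher and 11 (36.7%) lower. Their median of 0.31 became -0.24 after quantile normalisation and -0.29 after cyclic loess. Relative to all genes these medians were 0.1, -0.09 and -0.12. The sodium bicarbonate cotransporter Slc4a4 read 2.59, 4.71, 3.73 and 5.19 in Acini A to D and 10.6, 10.69, 7.44 and 7.41 in Ducts A to D, with A and B well above C and D. Slc12a2, the sodium-potassium-chloride importer, was even at 11.61 to 12.26 in Ducts against 9.15 to 9.43 in Acini (6.41-fold higher). The apical exchanger Slc26a6 was 7.9-fold lower. Cftr, the chloride channel that defines bicarbonate-secreting ducts, was not called at 0.19 ± 0.75 (adjusted p = 0.825). It read 3.57, 6.61, 2.23 and 2.38 in Ducts A to D, where B alone lay above the Acini range of 2.99 to 4.06. The difference was -0.78 without Ducts B. Only 1 Acini array and 2 Ducts arrays lay above their 30th percentile, so that most of these values are near the bottom of the scale. The water channels went different ways. Aqp8 and Aqp12, channels of the acinar cell, were 17.3-fold and 95.3-fold lower, and Aqp5 was higher at 9.19, 6.89, 11.27 and 11.59 in Ducts A to D against 3.5 to 4.48 in Acini. The potassium channel subunit Kcne3 was at 8.7, 10.81, 7.06 and 6.4 against 3.21 to 4.73. Carbonic anhydrase 2 (Car2), the cytosolic source of bicarbonate, read 10.7, 11.78, 6.51 and 6.04 in Ducts A to D against 4.95 to 5.88 in Acini, and its difference was 5.93 on Ducts A and B alone but 0.97 on C and D alone.

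Of 36 tested genes of tight, adherens, gap and desmosomal junctions, 22 (61.1%) were higher and 5 (13.9%) lower, with a median of 1.44. Cldn2, a claudin that forms pores for sodium and water, read 4.96, 4.43, 4.51 and 4.68 in Acini A to D and 12.21, 12.11, 10.96 and 10.67 in Ducts A to D. Cldn7, a claudin of simple epithelium, was 11.2-fold higher, and Cldn10 was at least 14-fold lower. The intestinal-type cadherin Cdh17 was at 10.44, 8.37, 9.29 and 8.98 in Ducts against 3.37 to 4.23 in Acini. E-cadherin (Cdh1), the general adhesion molecule of epithelia, was 3.66-fold higher with a Ducts range of 11.7 to 11.74, and Epcam was 8.14-fold higher. The gap junction genes Gjb2 and Gjb1 were lower. Gjb2 (connexin 26) read 3.85, 5.36, 3.11 and 3.44 in Ducts A to D against 8.62 to 9.53 in Acini, and Gjb1 (connexin 32) read 6.38, 7.85, 5.89 and 4.87 against 8.37 to 8.82. Gjb1 was not called on another probe set (difference -1.05, adjusted p = 0.119).

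Secreted and surface proteins of mucous and inflamed epithelium were mixed. Of 26 tested mucins, trefoil factors and secreted duct proteins, 8 (30.8%) were higher and 5 (19.2%) lower. Their median of 0.02 became -0.15 after quantile normalisation and -0.1 after cyclic loess, which is -0.19, -0.01 and 0.07 relative to all genes. The tetraspanin Tspan8 was at least 249-fold higher. Wfdc2, a small secreted protein of the protease inhibitor type, read 4.99, 5.58, 5.22 and 5.42 in Acini A to D and 12.59, 12.85, 12.09 and 11.9 in Ducts A to D (133-fold higher). The aspartic protease Ctse was at 10.62, 12.32, 10.15 and 9.22 in Ducts against 3.88 to 6.85 in Acini. The trefoil factor Tff2 went the other way, at 4.89, 8.53, 6.97 and 6.16 against 13.6 to 13.94. Lcn2, an iron-sequestering protein of inflamed epithelium, read 13.31, 13.76, 8.09 and 7.36 in Ducts A to D against 3.59 to 4.68 in Acini, higher on all 4 arrays and highest in A and B. Lactoferrin (Ltf) was not called (3.87 ± 1.73, adjusted p = 0.0569), with 12.45 and 14.54 in Ducts A and B, 5.78 and 4.69 in C and D, and 5.37 to 5.76 in Acini. Of 30 tested chemokines and inflammatory signals, 8 (26.7%) were higher and 8 (26.7%) lower. The counts were 6 and 13 without Ducts A and B, and 14 and 7 without C and D. Ccl20, which attracts immune cells to mucosa, was higher on every Ducts array at 9.81, 10.9, 9.02 and 8.56, against 3.81 to 5.95 in Acini. Cxcl1 and Cxcl2, which draw neutrophils, were not called (adjusted p = 0.154 and 0.113). They read 10.67, 12.07, 6.87 and 7.13 and 9.79, 10.16, 5.11 and 5.15 in Ducts A to D against 10.52 to 10.89 and 9.24 to 9.52 in Acini, so that A and B lay near the Acini level and C and D below it.

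Of 48 tested receptors and response genes of the factors in the organoid medium, 31 (64.6%) were higher and 12 (25%) lower, with a median of 1.64. The EGF receptor Egfr read 4.91, 5.37, 4.97 and 5.14 in Acini A to D and 9.76, 8.96, 8.02 and 8.31 in Ducts A to D (12.7-fold higher, adjusted p = 1.54e-06), although another of its probe sets was lower by 1.44 on the log2 scale. The FGF receptor Fgfr2 was 5.6-fold higher, although another of its probe sets was lower by 0.57. The feedback inhibitors that EGF and FGF signalling induces included genes that were higher, with Dusp4 at 8.61, 9.24, 10.63 and 11.07, Dusp6 at 10.93, 11.07, 11 and 11.1 and Spry2 at 8.25, 7.13, 8.66 and 8.94 in Ducts A to D, against 3.09 to 4.5, 5.67 to 7.54 and 3.9 to 4.3 in Acini. Among genes of Wnt signalling, Lgr5, an R-Spondin receptor and stem cell marker, read 7.95, 8.38, 5.4 and 4.67 in Ducts against 3.76 to 4.39 in Acini, with a difference of 4.11 on Ducts A and B alone and 0.98 on C and D alone. On another probe set Lgr5 was lower by 0.85 on the log2 scale. Its relative Lgr4 differed by 0.77 ± 0.21 (adjusted p = 0.00586) and by -0.13 and -0.36 under quantile normalisation and cyclic loess, where it was not called. Axin2, the general Wnt target, was not called (-0.53 ± 0.25, adjusted p = 0.0701). Id1 and Id2, the usual targets of BMP signalling, which Noggin in the medium blocks, were 32.7-fold and 16.4-fold higher at 11.38, 11.73, 10.51 and 10.31 and 11.51, 11.32, 10.16 and 9.6 in Ducts A to D.

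The ligands of the EGF family went different ways. Egf itself read 8.5, 8.77, 9.24 and 8.23 in Acini A to D and 3.29, 3.15, 3.15 and 3.18 in Ducts A to D, at least 43.9-fold lower (adjusted p = 1.14e-10). Of the 8 tested ligands, 5 were higher and 3 lower, with a median of 0.76. Epiregulin (Ereg) read 8.23, 7.22, 9.5 and 9.44 in Ducts against 3.23 to 5.08 in Acini, and betacellulin (Btc) 8.66, 8.22, 8.33 and 7.82 against 5.51 to 5.63. Tgfa was 6.09-fold higher on the probe set used, but the mean of its probe sets gave a difference of 0.17 (adjusted p = 0.274). Hbegf differed by 0.88 ± 0.22 (adjusted p = 0.00316), and by -0.23 after cyclic loess, where it was not called.

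YAP, the growth regulator that the study switched on in acini, moves to the nucleus when a cell is stretched or sits on stiff matrix. There it acts with the DNA-binding TEAD factors. Of 22 tested YAP target genes, 16 (72.7%) were higher in Ducts and 2 (9.09%) lower, with a median of 1.73. Ankrd1 read 7.43, 7.17, 7.16 and 6.72 in Acini A to D and 12.18, 11.7, 10.67 and 10.67 in Ducts A to D (18.2-fold higher, adjusted p = 2.07e-07), and Ccn2 (CTGF) read 6.69, 6.78, 7.18 and 5.97 against 12.09, 12.53, 11.64 and 10.85. Ajuba, a LIM protein of adherens junctions that acts on the Hippo kinases, was at 10.03, 9.3, 10.36 and 10.47 in Ducts against 4.12 to 5.45 in Acini. Amotl2 and Myof, a YAP inhibitor and a membrane repair protein, were 10.2-fold and 20.2-fold higher. The receptor tyrosine kinase Axl read 9.67, 6.05, 9.16 and 9.43, with Ducts B below the other arrays but above the Acini range of 4.39 to 4.62. Of the coactivators themselves, Yap1 was at 8.19 to 8.55 in Acini and 9.33 to 9.73 in Ducts (1.12 ± 0.14, adjusted p = 9.91e-06), and at a difference of -0.01 after cyclic loess. Wwtr1 (TAZ) was at 6.56 to 7.2 against 9.23 to 9.56, 5.49-fold higher.

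The promoters of 3 of these targets are printed because they hold the TEAD letters GGAATG, shown in capitals on either strand (CATTCC on the opposite one). They are RefSeq sequence on GRCm38.p6, on the strand of the gene and ending before the start that the promoter table gives. For Amotl2 that start lies inside the annotated gene, which begins at base 102717091.
Ankrd1, chr19:36119845-36120064, minus strand: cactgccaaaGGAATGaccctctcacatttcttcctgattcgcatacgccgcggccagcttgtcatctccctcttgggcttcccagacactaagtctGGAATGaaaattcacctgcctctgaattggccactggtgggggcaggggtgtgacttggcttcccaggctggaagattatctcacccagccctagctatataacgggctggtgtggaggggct
Ajuba, chr14:54577662-54577861, minus strand: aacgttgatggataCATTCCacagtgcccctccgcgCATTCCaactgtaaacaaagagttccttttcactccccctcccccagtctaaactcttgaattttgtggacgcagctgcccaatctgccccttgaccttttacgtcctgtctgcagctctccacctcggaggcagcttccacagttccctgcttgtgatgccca
Amotl2, chr9:102717704-102717803, plus strand: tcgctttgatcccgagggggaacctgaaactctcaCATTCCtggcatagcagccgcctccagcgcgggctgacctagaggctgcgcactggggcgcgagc
Ankrd1 and Ajuba held the letters at 2 places each, in Ankrd1 210 to 205 and 123 to 118 bases before the start. Of 16 targets with a window of 250 bases, 7 (43.8%) held GGAATG, against 14.4% of all 27025 genes. One of the 16 acinar enzymes (6.25%) held it.

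Cyclin D1 and its kinase were higher in Ducts. Of 39 tested cyclins, kinase inhibitors and replication genes, 19 (48.7%) were higher and 2 (5.13%) lower, with a median of 0.66. The cyclin gene Ccnd1, which carries growth signals to the cycle, read 7.69, 7.88, 7.76 and 7.38 in Acini A to D and 12.16, 11.81, 11.86 and 11.93 in Ducts A to D (19.2-fold higher, adjusted p = 1.56e-10). Its kinase Cdk4 was 9.3-fold and the replication helicase subunit Mcm7 9.83-fold higher. Myc was 4.08-fold higher. The inhibitor Cdkn2b, which blocks the same kinase, was also higher at 9.97, 9.7, 9.33 and 9.63 against 3.85 to 6.03. Mki67, the mark of dividing cells, was not called (-1.9 ± 0.91, adjusted p = 0.0728) and read 6.09, 7.04, 4.46 and 3.79 in Ducts A to D against 6.31 to 7.89 in Acini.

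Genes that detoxify and that feed metabolism changed by branch. Of 41 tested glutathione and antioxidant genes, 21 were higher and 8 lower, with a median of 0.76, and 14 and 13 after cyclic loess with a median of -0.11. Relative to all genes the median was 0.55, and 0.06 after cyclic loess. The glutathione transferases Gsta4 and Gsta3 read 12.23, 13.21, 12.19 and 11.93 and 9.62, 12.33, 10.19 and 10.2 in Ducts A to D against 4.24 to 5.66 and 4.84 to 5.4 in Acini. The glutathione peroxidase Gpx2 was 45.6-fold higher, and Nfe2l2 (NRF2), which drives this set, 10.7-fold. Prdx4, the peroxiredoxin of the endoplasmic reticulum, was 22.3-fold lower at 7.13 to 8.11 against 11.95 to 12.37. Txnip, the thioredoxin inhibitor that glucose induces, read 11.27, 12.39, 4.98 and 5.24 in Ducts A to D against 11.99 to 12.31 in Acini, and its difference of -3.65 ± 1.45 (adjusted p = 0.0355) was -0.29 on Ducts A and B alone, -7.01 on C and D alone, and -2.49 with no call without Ducts C alone (adjusted p = 0.115). Of 38 tested cytochrome P450, glucuronidation and efflux genes, 14 (36.8%) were higher and 13 (34.2%) lower, near the shares over all genes. Their median relative to all genes was -0.29, and it was -0.12 after quantile normalisation and 0.02 after cyclic loess. The efflux pumps Abcc4 and Abcc3 were 56.9-fold and 19-fold higher, and the xenobiotic receptor Ahr read 10.86, 10.82, 8.78 and 8.58 against 4.65 to 6.33. Of 27 tested aldehyde dehydrogenase and retinoid genes, 5 (18.5%) were higher and 9 (33.3%) lower, the latter near the share over all genes. Rdh10, which makes retinaldehyde, was 63.6-fold higher and Aldh1a1, which oxidises it, 5.13-fold lower. Aldh1l1, of folate metabolism, was at least 25.1-fold lower.

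Of 25 tested genes for glycolysis and glucose uptake, 15 (60%) were higher and 3 (12%) lower, with a median of 2.14. Hexokinase 2 (Hk2) read 9.76, 10.08, 9.56 and 9.56 in Ducts A to D against 5.07 to 7.09 in Acini, and pyruvate kinase Pkm 11.78, 11.18, 11.39 and 11.42 against 6.57 to 7.88. Gapdh, often used as a reference gene, was 6.65-fold higher on a 3′ control probe set of the array, the brightest for this gene. It differed by 3.17 to 4.3 on its 2 others. The 3′ control read 1.29 to 1.91 above the 5′ control in Acini and -0.07 to 0.02 in Ducts. The part of this in the larger differences was not tested. The mitochondrial respiratory chain depended on the scaling. Its 73 tested genes counted 33 higher and 14 lower as deposited, 9 and 36 after quantile normalisation, and 8 and 50 after cyclic loess, and its median relative to all genes was 0.07, -0.18 and -0.64. Fatty acid oxidation, with 10 of 26 (38.5%) higher and 9 (34.6%) lower, counted 2 and 18 after cyclic loess. Its median relative to all genes went from 0.02 to -0.46. Of single members, Sdhd and Cox7c of the respiratory chain were 4.8-fold and at least 4.52-fold higher, with differences of 1.14 and 2.34 after cyclic loess. The dehydrogenase Acadl was 5.68-fold higher and the fatty acid transporter Cd36, also a gene of capillaries and fat, at least 10.5-fold lower.

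Of 36 tested amino acid and creatine genes, 15 (41.7%) were lower and 11 (30.6%) higher, with a median of -0.18. Creatine is made in 2 steps, by Gatm and then Gamt. Gatm read 11.66, 11.89, 12.09 and 11.91 in Acini A to D and 4.01, 4.53, 3.1 and 3.48 in Ducts A to D, 276-fold lower (adjusted p = 5.97e-11), and Gamt read 10.35, 10.35, 10.66 and 10.34 against 4.25, 4.47, 3.89 and 3.36. Gnmt, which uses up methyl groups on glycine, was 41.6-fold lower. The glutamine transporter Slc38a5 and the neutral amino acid transporter Slc7a8 were at least 184-fold and at least 33.1-fold lower. The biosynthetic enzymes Asns and Phgdh were lower by less, 1.97-fold and 2.21-fold, with Phgdh not called for the mean of its probe sets (adjusted p = 0.0981). The cystine importer Slc7a11 was higher (1.35 ± 0.41, adjusted p = 0.00911) but not after cyclic loess (difference 0.46, adjusted p = 0.356), and Ducts A lay within the Acini range at 6.28.

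Most genes of the proteasome and the lysosome were higher in the deposited scaling. Of 37 tested proteasome genes, 29 (78.4%) were higher and 2 lower with a median of 1.22, and of 36 lysosome genes 23 were higher and 5 lower with a median of 0.96. After cyclic loess the counts became 14 and 10 for the proteasome and 11 and 15 for the lysosome, whose median was then -0.09. Relative to all genes the lysosome median was 0.75, and it was 0.3 and 0.09 after quantile normalisation and cyclic loess. The core subunit Psma1 read 9.79, 10.07, 9.58 and 9.73 in Ducts A to D against 6.41 to 7.01 in Acini. Psmb10, the subunit of the immunoproteasome, was instead 16.9-fold lower at 6.12 to 6.97 against 10.56 to 10.7. The lysosomal protease Ctsh was 22.2-fold higher. Of 28 tested MHC, interferon and antigen presentation genes, 15 (53.6%) were lower and 4 (14.3%) higher, with a median of -0.84. The class II genes H2-Aa and Cd74 were lower (at least 30.9-fold and 9.71-fold), beside the lower immune markers given above. B2m, the light chain of class I, was higher at 11.8, 12.23, 11.12 and 10.35 in Ducts A to D against 9.4 to 10.52 in Acini, but was not called after cyclic loess (difference 0.42, adjusted p = 0.327).

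Of 39 tested actin, myosin and cortical genes, 29 (74.4%) were higher and 5 (12.8%) lower, with a median of 1.66. Ezrin (Ezr), which ties the apical membrane to actin, was 22.4-fold higher on the probe set used and lower by 0.88 on the log2 scale on its other. The microvillus protein villin (Vil1) read 7.84, 9.44, 8.07 and 7.3 in Ducts A to D against 3.32 to 4.02 in Acini. Vimentin (Vim), the filament of mesenchyme, was 35.4-fold lower, beside the stromal markers. Of 30 annexins and S100 proteins, 18 were higher and 3 lower, with a median of 1.81. Anxa3 read 6.6, 7.3, 6.92 and 6.6 in Acini A to D and 12.94, 12.66, 12.86 and 12.98 in Ducts A to D (64.2-fold higher, adjusted p = 8.36e-12), and S100a6 was 59.3-fold and S100a14 44.3-fold higher. The gut lectin Lgals4 read 8.8, 12.06, 12.98 and 12.75 in Ducts against 3.65 to 6.28 in Acini.

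Integrins and the basement membrane counted 20 of 29 tested genes higher and 6 lower, with a median of 1.49. The hyaluronan receptor Cd44 read 12.44, 12.32, 11.14 and 10.66 in Ducts A to D against 5.51 to 6.54 in Acini. The tetraspanin Cd9 and the proteoglycan Sdc1 were 17.1-fold and 10.1-fold higher. Fibronectin (Fn1) was higher at 11.88, 10.67, 8.27 and 8.01 against 6.13 to 7.39, with a difference of 1.3 without Ducts A and B and 4.44 without C and D. Proteases and their inhibitors split near the shares over all genes, with 16 of 37 (43.2%) higher and 12 (32.4%) lower. The trypsin inhibitor Spink1 and the serpin Serpini2, both made by acinar cells, read 13.36, 13.61, 13.55 and 13.58 and 12.75, 13.32, 13.5 and 13.18 in Acini and 3.09, 3.54, 3.12 and 3.29 and 2.71, 2.7, 3 and 3.17 in Ducts. Serpinb6b and the membrane serine protease Prss22 were 82.6-fold and 29-fold higher.

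The primary cilium stands on duct cells and is lacking from acinar cells. Of 34 tested cilium and polycystic disease genes, 18 were higher and 3 lower, with a median of 0.80. The intraflagellar transport gene Ift81 read 4.53, 4.35, 5.5 and 4.35 in Acini A to D and 8.43, 7.93, 7.9 and 7.9 in Ducts A to D. Its other probe sets differed by -0.67 to 1.37. The motor subunit Kif3a was 8.21-fold higher. The hedgehog receptor Ptch1 was 8.49-fold higher on the probe set used and lower by 0.7 to 1.42 on its others.

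Clock genes were lower for 8 of 21 tested (38.1%) and higher for 5 (23.8%), with a median of -0.38. Over all genes tested the shares were 33.1% lower and 42.7% higher. Arntl (BMAL1) read 4.67, 4.91, 4.88 and 4.15 in Acini A to D and 6.68, 6.69, 6.57 and 6.88 in Ducts A to D, but its other probe set was lower by 0.87 on the log2 scale and the mean of both gave a difference of 0.59. Nr1d1, Dbp and Per1, which BMAL1 induces, were 10.8-fold, 8.97-fold and 3.92-fold lower. The hour of collection was not stated in the labels or the methods. The list of immediate early and heat shock genes had 16 of 26 tested members lower and 7 higher, with a median of -1.08. Fosb read 9.68, 9.95, 10.17 and 9.22 in Acini and 2.47, 2.9, 3.24 and 2.87 in Ducts, at least 93.2-fold lower. Jun and Zfp36, of the same fast response, were 21-fold and 21.1-fold lower. The mitochondrial chaperone Hspd1 was 4.87-fold higher.

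Of 22 tested imprinted genes, which are read from 1 parental copy, 5 (22.7%) were higher and 8 (36.4%) lower, with a median of -0.30. The share lower was near the 33.1% of all genes tested. Decorin (Dcn), also a stromal marker, was 177-fold lower. Phlda2, a growth restrictor of the placenta, was 3.86-fold higher, and Impact, an inhibitor of the response to lack of amino acids, read 7.32, 6.66, 9.17 and 9.7 in Ducts A to D against 3.99 to 5.32 in Acini.

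**Figure D3:**
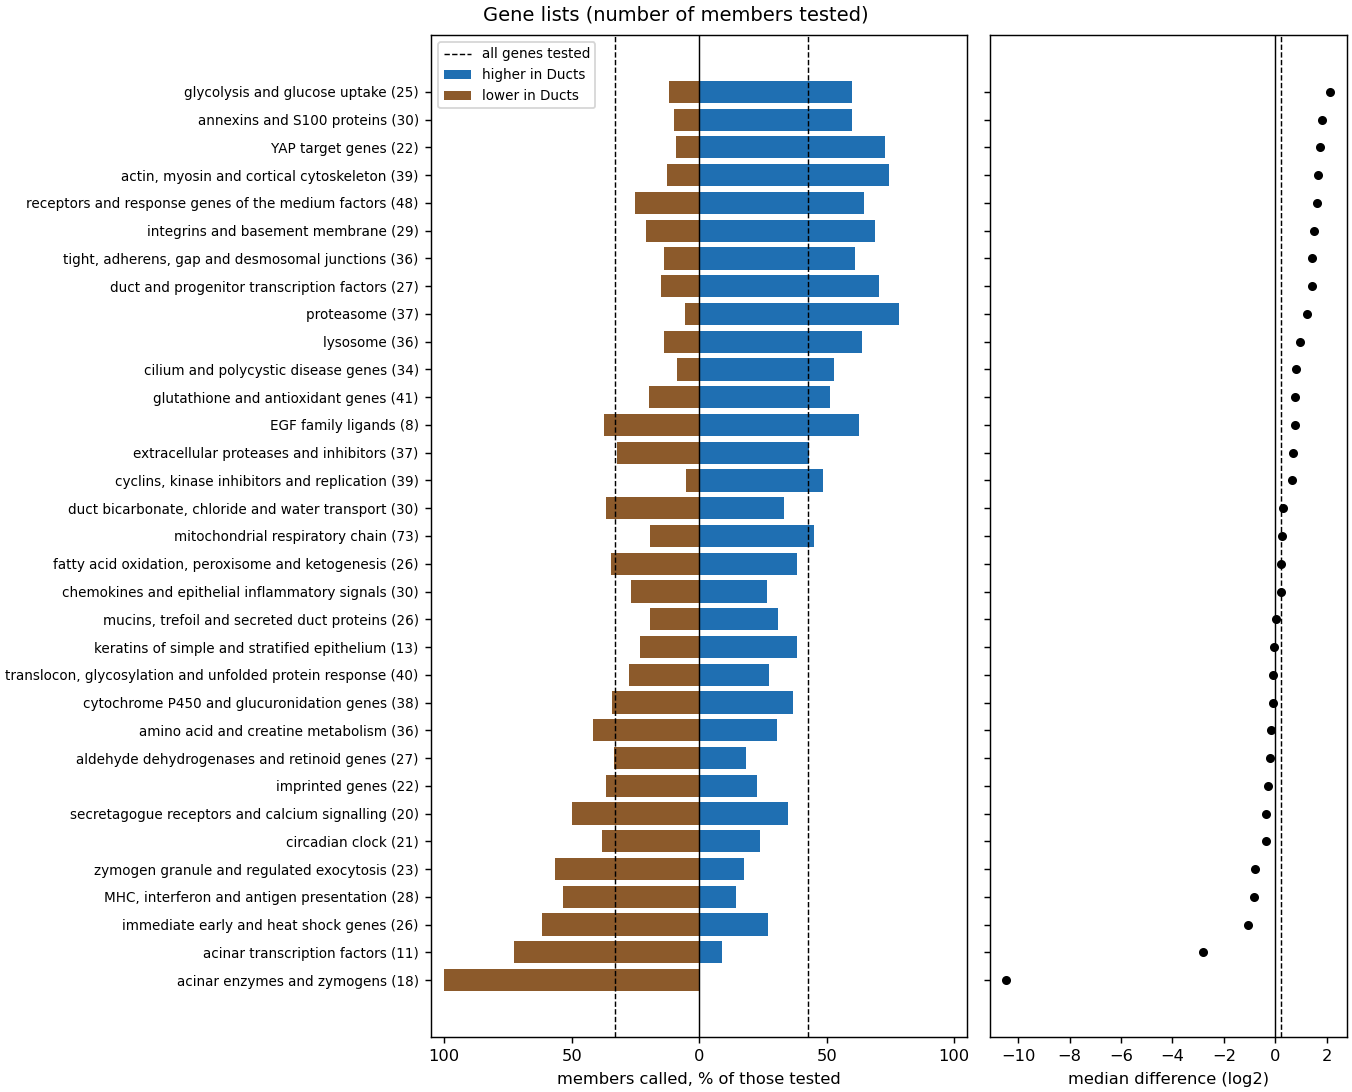
Percent of the tested genes of each list called higher (bars to the right) and lower (bars to the left) in Ducts, and the median log2 difference of Ducts minus Acini (points), with dashed lines at the values over all 14991 genes, 42.7% higher, 33.1% lower and a median of 0.21. Enzymes lie at 100% lower, and the proteasome, actin and YAP target lists show the highest shares called higher.

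The 4 Ducts arrays were not alike. An SD of 1 or more over the 4 arrays was found for 714 genes in Ducts (4.76%) and 144 in Acini (0.961%), although the median SD was lower in Ducts at 0.229 than in Acini at 0.361. In 600 of the 714 genes the pair A and B did not overlap the pair C and D, and A and B were the higher pair in 458. The other ways to pair the arrays separated 33 and 77 genes. Over all genes tested, 1468 (9.79%) had the means of A and B and of C and D at least 2-fold apart with no overlap, 986 with A and B higher and 482 with C and D higher. The pairs were seen in the values, so that these counts carry no test.

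The lists in which the pairs parted most often were chemokines and inflammatory signals, with 17 of 30 genes higher in A and B and 1 in C and D, and bicarbonate, chloride and water transport, with 11 and 3 of 30. Carbonic anhydrase 9 (Car9), a target of low oxygen, read 10.47, 10.59, 3.5 and 3.35 in Ducts A to D against 5.13 to 5.96 in Acini, so that one pair lay above and the other below the Acini arrays. The neutrophil chemokine Cxcl5 read 12.44, 13.11, 8.57 and 8.37 against 2.38 to 3.68, and the monocyte coreceptor Cd14 11.91, 12.5, 8.68 and 8.07 against 6.47 to 7.45, both above Acini on all 4 arrays. Other lists ran the opposite way. Of 40 translocon and unfolded protein response genes, 15 were higher in C and D and none in A and B, and of 36 amino acid and creatine genes 10 were higher in C and D and 1 in A and B. The stress factor Ddit3 (CHOP) read 7.97, 7.09, 10.82 and 10.92 in Ducts A to D, with Acini at 8.52 to 8.84, and Atf4, which induces it, read 11.63, 11.48, 12.49 and 12.57 with Acini at 11.37 to 11.54. Atf4 was called higher by 0.59 (adjusted p = 0.0458), but by 0.11 without Ducts C and D and by -0.41 after cyclic loess, with no call in either, and the call was also lost without any single array of Acini or without Ducts C or D (adjusted p from 0.0628 to 0.144). Such genes were few in the respiratory chain with 3 of 73, the proteasome with 2 of 37, the enzymes with 1 of 18 and the stromal markers with 1 of 18, and there were none among 11 endocrine and 13 endothelial markers.

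**Figure D4:**
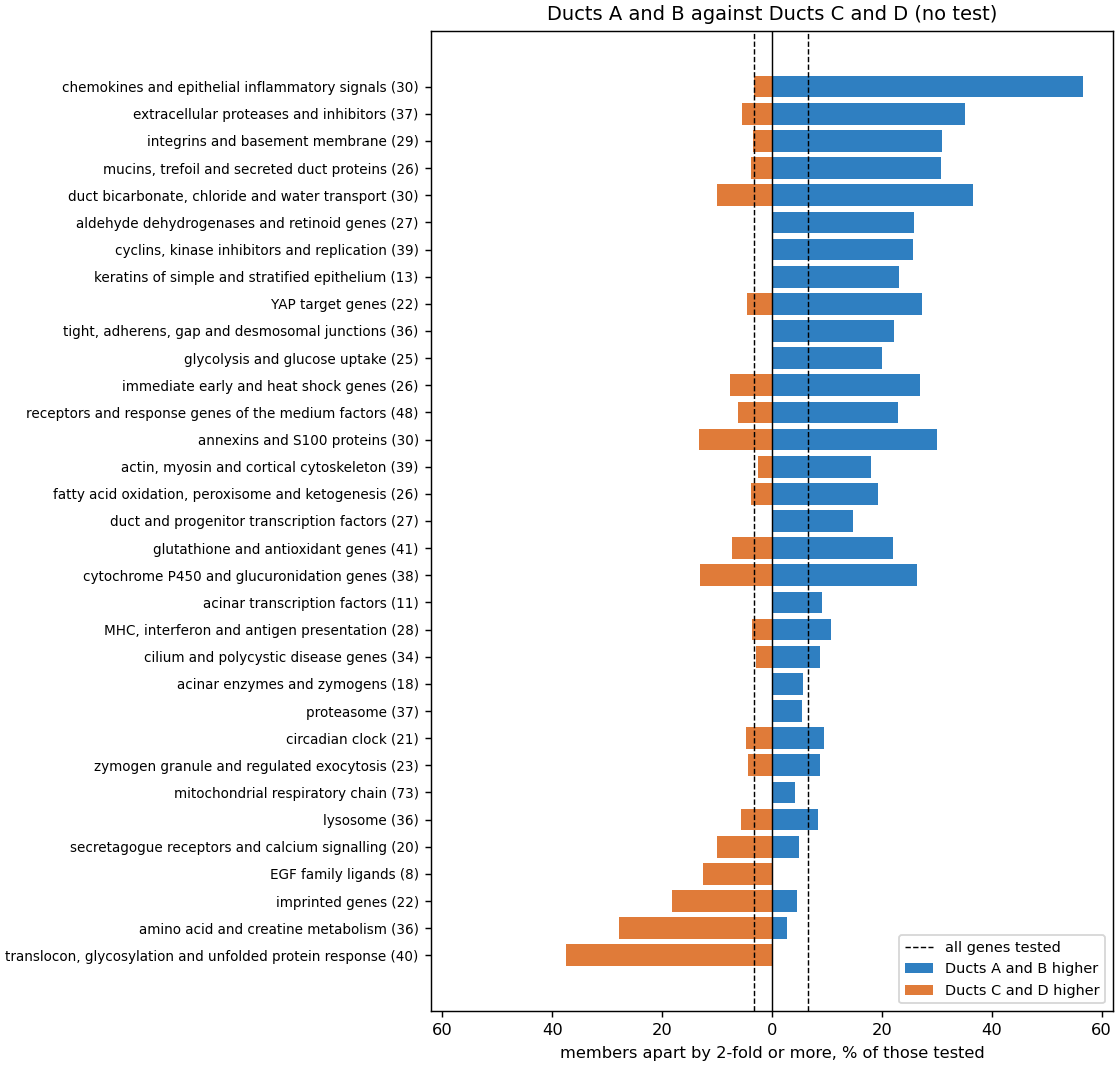
Percent of the tested genes of each list whose Ducts A and B arrays lay at least 2-fold above C and D (bars to the right) or at least 2-fold below them (bars to the left), with no overlap, and dashed lines at the shares over all genes tested. No test was made. Chemokines, transport and mucins lean to A and B, while translocon and unfolded protein response genes and amino acid genes lean to C and D.

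Some genes followed 1 array. Olfm4, a marker of crypt stem cells, read 3.7, 11.29, 5.04 and 4.83 in Ducts A to D, high in B alone, and was not called (adjusted p = 0.0629). Aldh1a7 read 4.01, 8.24, 3.81 and 4.33 against 8.82 to 10.27 in Acini. The next 2 genes followed the pairs. Loricrin (Lor), a protein of the cornified skin envelope, read 10.96, 8.11, 12.44 and 12.65 against 3.09 to 4.49, higher on every Ducts array and highest in C and D. Reg3b, a secreted lectin of stressed acini, read 4.98, 6.73, 10.94 and 10.85 against 13.87 to 13.98, lower on every Ducts array and lowest in A and B.

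**Figure D5:**
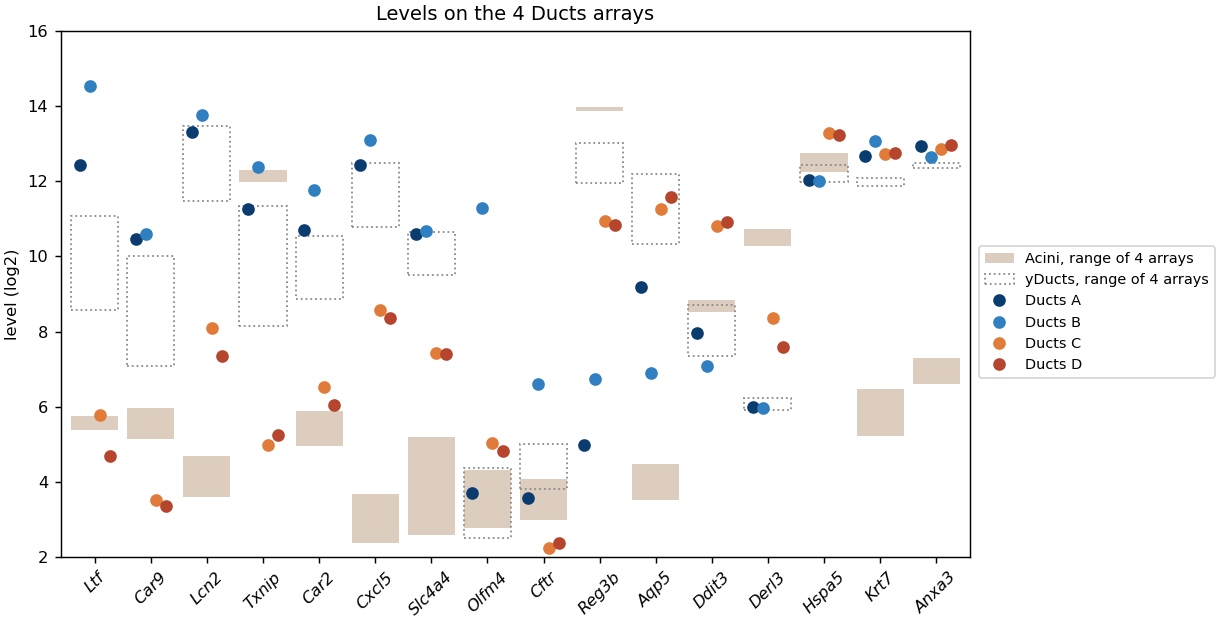
Log2 levels of 16 genes on Ducts A, B, C and D (points), with the range of the 4 Acini arrays as shaded boxes and that of the 4 yDucts arrays as dotted boxes. Car9, Ltf, Lcn2 and Txnip are high in A and B, Ddit3, Derl3 and Hspa5 are higher in C and D, Olfm4 is high in B alone, and Krt7 and Anxa3 are level.

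The distance over the tested genes was 63.9 to 104 between Ducts and yDucts, against 199 to 225 between Ducts and Acini. Between yDucts and Ducts 470 genes (3.14%) were called, against 75.7% between Ducts and Acini, in comparisons that share the Ducts arrays. The count hung on the arrays and their weights, at 2180 without Ducts A and B, 6183 with array weights, 838 without Ducts B, 264 without Ducts C, 295 without Ducts D, and 229, 256 and 298 without yDucts A, C and D. Some acinar genes that were low in Ducts were higher in yDucts. Nr5a2 was at 2.99 to 3.53 in Ducts and at 6.8 to 7.2 in yDucts (yDucts minus Ducts 3.74 ± 0.15, adjusted p = 1.92e-08), with Acini at 9.66 to 9.92. Reg3g, an antimicrobial lectin, was at 3.2 to 4.15 in Ducts and 9.74 to 10.59 in yDucts, around its Acini range of 9.48 to 10.19. Amy1 differed by 0.89 (adjusted p = 0.00459) at 3.06 to 3.53, still far below Acini. Ptf1a, Rbpjl and Bhlha15 were not called between the organoids (adjusted p = 0.763, 0.821 and 0.835).

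The largest differences with yDucts higher included genes of secreted proteins and Vim. None of the 18 tested stromal markers was called between yDucts and Ducts. Gdf10, a BMP-type growth factor, read 10.06 to 11.28 in yDucts against 2.9 to 3.21 in Ducts and 6.27 to 6.99 in Acini, and Nepn, a matrix proteoglycan, 8.08 to 10.52 against 2.75 to 3.14 and 3.11 to 3.66. Vim read 9.51 to 10.96 in yDucts, above both Ducts (3.41 to 4.07) and Acini (8.05 to 9.18). Ambp, a plasma protein of liver, was at 12.72 to 13.01 in yDucts, 7.29, 7.22, 4.71 and 4.19 in Ducts A to D and 7.37 to 7.88 in Acini. Its difference of Ducts minus Acini was -1.78 (adjusted p = 0.0134). It was -3.18 without Ducts A and B, and -0.38 with no call without C and D (adjusted p = 0.0858). In the other direction, Gpx2 was at 7.23 to 8.09 in yDucts against 9.95 to 12.59 in Ducts, S100a9 at 3.25 to 3.95 against 5.79 to 8.42, the apoptosis gene Bcl2l15 at 4.5 to 5.56 against 7.1 to 9.51, and Cldn7 at 10.15 to 10.61 against 11.67 to 11.87. Mecom was at 5.06 to 6.09 against 6.47, 9.82, 9.2 and 9.17 in Ducts A to D, and the protocadherin Pcdhb17 at 2.81 to 3.21 against 4.71 to 6.27. The creatine enzyme Gamt was partly higher in yDucts at 5 to 6.46 (adjusted p = 0.00307), whereas Gatm was not called (adjusted p = 0.677).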

How the data were processed

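Total RNA was labelled as biotinylated cRNA and hybridised to 12 expression arrays, 4 per group. The authors deposited log2 values per probe set after RMA, which the submitters' processing notes name. The RMA version, the probe set definition and whether all 12 arrays were normalised together were not given in the sources used here. Depth does not apply to arrays, so the number of arrays limits the precision.

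Probe sets were named from the platform annotation, and 932 with several symbols and 9211 with no symbol listed were left out of the gene results. Control probe sets with 1 symbol were kept, and Actb, Gapdh and Pcx were read from one. Each gene was read from the probe set with the highest mean over all arrays. Genes had to exceed the 30th percentile of an array on at least 4 arrays. A linear model with the 3 groups was fitted to all 12 arrays with limma 3.58.1 in R 4.3.3 (residual df 9, prior df 3.72), for Ducts minus Acini and yDucts minus Ducts, with Benjamini-Hochberg adjustment over all tested genes and a threshold of 0.05. A simulation of Ducts against Acini over 14991 genes, with independent noise, shifted 100 genes by 1 and 100 by 2 on the log2 scale. Of these, 55 and 97 were called, beside 7 genes that were not shifted. Far fewer genes were shifted there than were called in the data. These shares therefore do not give the power of the comparison.

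Genes were named for the 12 largest changes each way among genes whose groups did not overlap, the 5 largest differences in each list, a set of genes of prior interest, the largest SD within Ducts or Acini, the brightest genes whose 95% interval of the difference lay inside -1 to 1, and the 5 largest differences each way between yDucts and Ducts. Outside that rule, and chosen after their values were seen, are Amotl2, Amy1, Ano1, Asns, B2m, Car2, Cxcl1, Cxcl2, Ddit3, Dmbt1, Fn1, Foxa3, Gjb1, Hspd1, Itpr3, Klk1, Phgdh, Prox1, Rab26, Rab3d, Reg3b, Slc12a2, Slc26a6, Slc7a11, Snap23 and Stx3. The members and lists were chosen with earlier results of these data known. Some members of the lists are not analysed here. Promoter windows came from RefSeq, and 34754 of the probe sets with 1 symbol matched RefSeq gene names. Alternatives covered the scaling, the filter, the choice of probe set, the model and the arrays used.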

Additional observations from a re-analysis of the deposited data

Results flagged for a closer look

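Groups of 4 arrays were examined for the named genes and for measures of array quality, 374 in all. In 17 of them, all of named genes, the highest or lowest array lay apart from the other 3, by a gap above Dixon's 95% critical share of the range, where chance marks about 1 group in 20. In Acini these were Cel on array C (14.5, others 14.39 to 14.40), Cpa1 on B (14.57, others 14.60), Ctsh on A (5.73, others 6.27 to 6.36), Gamt on C (10.66, others 10.34 to 10.35), Ift81 on C (5.5, others 4.35 to 4.53) and Per1 on C (8.53, others 7.88 to 7.98). For Cel, Cpa1 and Gamt the other arrays lay within a narrow range.

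In Ducts, array B stood apart for Aldh1a7 (8.24, others 3.81 to 4.33), Axl (6.05, others 9.16 to 9.67), S100a9 (8.42, others 5.79 to 6.09) and Tmed6 (4.39, others 2.57 to 2.85). Array A stood apart for Fgfr2 (9.28, others 8.13 to 8.28), Ift81 (8.43, others 7.90 to 7.93), Reg3g (3.2, others 3.99 to 4.15) and S100a14 (9.11, others 10.38 to 10.50). Rnase1 was marked on C (3.33, others 3.11 to 3.13), and Nr1d1 (4.39, others 4.76 to 4.8) and Ptch1 (9.06, others 8.77 to 8.80) on D. None of these genes overlapped between Ducts and Acini, and 64.5% of all genes tested did not either. The rules for naming genes favoured large differences, so that this says little about the marked arrays.

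Probe sets without exactly 1 symbol carried a difference as well. Of 5859 such probe sets that passed the same filter, 1075 (18.3%) were at least 2-fold higher in Ducts and 1027 (17.5%) at least 2-fold lower at an adjusted p under 0.05 (limma), beside 31.7% and 17.9% of the named genes.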

How the results depend on the processing

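Of 169 called genes named above, 152 kept direction and call under every alternative, 17 lost the call in at least 1 and 4 of these changed sign. With 1 array left out, the calls of 2 of them (Txnip and Atf4) were lost. Calls were also gained, as each named gene that was not called became called in at least 1 alternative. The number of such alternatives ran from 1 for Nepn to 7 for Olfm4. Axin2 and Cxcl2 were called lower in Ducts in 6 alternatives each, and Mki67 in 5. The causes were not tested. The count of genes higher in Ducts was 3862 after cyclic loess, and the count at least 2-fold higher was 2983 after quantile normalisation and 2384 after cyclic loess. The count lower came to 3026 when genes had to pass the 50th percentile, which left 12211 genes. Of the calls, 63.7% were higher with arrays centred on their medians, 67.7% with that filter and 47.1% with none, against 56.3%. With 1 array left out, 6196 to 6382 genes were higher and 4635 to 4929 lower, and 4605 to 4863 and 2628 to 2819 at least 2-fold. Between yDucts and Ducts the count was 229 to 838 with 1 array left out, 2180 without Ducts A and B, and 6183 with array weights.

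Differences changed sign as follows. Quantile normalisation gave Hspa5 -0.17, Sox9 -0.25, Lgr4 -0.13 and Ddit3 -0.33. Cyclic loess gave Hspa5 -0.72, Sox9 -0.35, Lgr4 -0.36, Hbegf -0.23, Yap1 -0.0052, Ddit3 -0.64 and Atf4 -0.41. Centring gave Krt8 0.16. The mean of the probe sets gave Hspa5 -0.22, Cftr -0.02 and Atf4 -0.12, and the probe set with the largest interquartile range gave Hspa5 -1.38, Krt8 0.0025 and Atf4 -0.16. Array weights gave Cftr -0.90 and Car9 -1.37. Without Ducts A and B, Sox9 was at -0.12, Cftr -1.20, Ltf -0.26 and Car9 -2.15. Without Ducts C and D, Hspa5 was at -0.39, Krt8 0.49, Cxcl1 0.64, Cxcl2 0.56 and Ddit3 -1.19. With single arrays left out, Krt8 ranged from -0.28 to 0.20, Cftr from -0.78 to 0.68 and Ddit3 from -0.10 to 1.18.

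The letters did not pair the arrays, as deviations from the group means correlated at 0.018, 0.033, -0.001 and -0.02 for letters A to D. With the letter as a replicate block, 6306 genes were higher and 4872 lower in Ducts, and 388 differed between yDucts and Ducts, and not every array correlated best with its own letter. Under the block, Atf4 was not called (adjusted p = 0.0536). The array signal limits genes at the bottom of the scale, where 337 tested genes had no Ducts array and 202 no Acini array above the 30th percentile.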

Other observations

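Several genes named above have more than 1 probe set, which may read different transcript ends. Of 169 called genes, 75 had another probe set with exactly 1 symbol, 16 of those had one that differed in the opposite direction, and 5 (Egfr, Ehf, Pdia4, Ptch1 and Tgfa) had one that did so by 2-fold or more. The rest of the 16 were Ahr, Arntl, Atf4, Ezr, Fgfr2, Ift81, Klf5, Lgr4, Lgr5, Phgdh and Sox4. The spread within Ducts touched many of the named genes, as 43 had an SD of 1 or more over the 4 Ducts arrays.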
